A study of Mus musculus with 14 samples.

Results

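The 10 tubulin genes described here are the alpha-tubulin genes *Tuba1a*, *Tuba1b* and *Tuba1c*, the beta-tubulin genes *Tubb2a*, *Tubb2b*, *Tubb3*, *Tubb4b*, *Tubb5* and *Tubb6*, and the gamma-tubulin gene *Tubg1*. They were chosen by name from 20337 genes with a symbol in the deposited count tables. No cut on their counts was used, but earlier results of these data were known when they were chosen. Each gene had 1 transcript in these tables, and all 10 passed the filter on low counts in every comparison. RNA was sequenced from full-grown mouse oocytes whose germinal vesicle was intact, in pools of 20 oocytes per library and 14 libraries in all. The females were 4 to 6 weeks old and had been primed with equine chorionic gonadotropin.

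The *Ago2* fl/fl controls (n = 3) carried floxed *Ago2* alleles and are also labelled wild-type. *Ago2* ADH oocytes (n = 3) came from *Ago2* fl/ADH females that carried Cre under the *Zp3* promoter, which is active in growing oocytes, so that the allele left in the oocyte encoded AGO2 without its slicing activity. *Ago2* null oocytes (n = 2) had lost AGO2 through the same Cre. *Dicer* KO oocytes (n = 3) carried an oocyte-specific deletion of *Dicer* and were compared with *Dicer* WT oocytes (n = 3). The background was mostly C57BL6, mixed from several transgenic strains. Each pool held oocytes of several females of 1 genotype, and replicates were separate collections. By the recorded lane numbers, the libraries of an *Ago2* genotype shared a lane that held no other genotype, and lane and genotype cannot be told apart. The *Ago2* ADH and *Ago2* null oocytes share the *Ago2* fl/fl libraries as controls, so their values are given side by side.

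Alpha- and beta-tubulin form the heterodimer that polymerizes into microtubules, and gamma-tubulin, within a ring complex, is the template from which microtubules grow. The meiotic spindle that the oocyte builds after the germinal vesicle breaks down is made of these microtubules. The isotypes are close in sequence except for an acidic tail at the C terminus, which is rich in glutamate and lies on the microtubule surface, where it is modified by glutamylation and other marks. Cells also sense free tubulin: when it is in excess, a nascent tubulin chain is recognised by its first residues and the messenger being translated is degraded. In oocytes, DICER cuts double-stranded RNA, including pairings between a messenger and an antisense pseudogene transcript, into small interfering RNAs, and AGO2 carrying such an RNA slices matching messengers. The comparisons ask how tubulin transcripts differed when the slicing activity, AGO2 itself or DICER was missing.

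Summed over transcripts, the libraries held between 29380403 and 58285057 counts. None was set aside as ambiguous, and whether a read shared by transcripts of the same gene was counted more than once is not known. Of *Ago2*, targeted in both *Ago2* mutants, the raw counts were 1416, 1509 and 1258 in *Ago2* fl/fl, 753, 709 and 535 in *Ago2* ADH and 401 and 278 in *Ago2* null libraries, with no overlap between groups. *Dicer1* had 28986, 29943 and 32662 counts in the libraries labelled *Dicer* WT and 59759, 51298 and 58813 in those labelled *Dicer* KO. These counts cover the whole transcript and do not separate the deleted part, so they do not check the *Dicer* labels. *Ago2* was also lower in *Dicer* KO (516, 438 and 726) than in *Dicer* WT libraries (1055, 994 and 1098). *Dicer1* was also higher in *Ago2* ADH (53099, 54166 and 43521) and *Ago2* null (53038 and 49518) than in *Ago2* fl/fl libraries (36314, 38135 and 34185). Both differences thus also occurred where the gene was not targeted. Summed over 10 oocyte markers, the level was between 16725 and 19114 CPM (counts scaled to a common library total) in the *Ago2* series and between 12160 and 12726 CPM in the *Dicer* series, whereas the sum over 10 granulosa and cumulus markers was at most 102 CPM.

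The coding ends of 8 tubulin genes are shown because they encode the tails in which the isotypes differ. Each line gives the last 10 codons before the stop codon, 5′ to 3′, with glutamate codons in capitals, as read from the GENCODE M21 transcripts (GRCm38).
Tuba1b: ggcGAGgggGAGGAAGAAggaGAGGAGtac
Tuba1c: gctGAAggagacgatGAGggtGAGGAAtat
Tubb2a: ttcGAGGAGGAGGAGggtGAAgatGAGgct
Tubb2b: ttcGAGGAGGAAGAGggcGAGgatGAGgct
Tubb3: gacGAGGAAtcgGAAgcccaggggcccaag
Tubb4b: tttGAGGAGGAGgctGAGGAGGAGgtggct
Tubb5: gatttcggaGAGGAGgcaGAAGAGGAGgcc
Tubg1: gactatatctcctggggcacccagGAGcag

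Between 3 and 6 of the last 10 codons encoded glutamate in the alpha and beta genes shown and in *Tubb6*, which had 6, against 1 in *Tubg1*. *Tuba1c* had 4 glutamate codons against 6 in *Tuba1b*. *Tubb2a* and *Tubb2b* differed here only in synonymous bases. The first 12 coding bases were atgcgtgagtgc in *Tuba1b* and *Tuba1c*, atgagggagatc in *Tubb3* and *Tubb4b*, atgagggaaatc in *Tubb5*, atgcgcgagatc in *Tubb2a* and atgcgagagatc in *Tubb2b*. In *Tubg1*, whose product is no subunit of the heterodimer, they were atgccgagagaa.

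The alpha genes lie together on chromosome 15 of GRCm38, *Tuba1b* from 98931425 to 98934565 and *Tuba1a* from 98949837 to 98953703 on the minus strand and *Tuba1c* from 99029891 to 99038110 on the plus strand. *Tubb2a* (34074274 to 34078007) and *Tubb2b* (34126748 to 34130354) are neighbours on the minus strand of chromosome 13. *Tubb3* lies on chromosome 8 (123411424 to 123422015, plus strand), *Tubb4b* on chromosome 2 (25222160 to 25224702, minus strand) and *Tubb5* on chromosome 17 (35833921 to 35838306, minus strand). *Tubb6* lies on chromosome 18 (67390717 to 67402749, plus strand) and *Tubg1* on chromosome 11 (101119938 to 101126419, plus strand). All of these transcripts have 4 exons except that of *Tubg1*, which has 11. The coding sequences of *Tuba1a* and *Tuba1b* were identical at 98.3% of 1353 bases, and those of *Tubb2a* and *Tubb2b* at 96.5% of 1335 bases.

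Of the 10 tubulin genes, the 3 alpha-tubulin transcripts were higher in all 3 mutants, by between 2.33-fold and 4.84-fold. *Tuba1c*, an alpha isotype found in most dividing cells, had the highest count of the 3. It was at 71.5, 68.5 and 66.1 CPM in the *Ago2* fl/fl libraries, against 183, 212 and 204 CPM in *Ago2* ADH and 182 and 227 CPM in *Ago2* null libraries, after scaling by the trimmed mean of M-values (TMM). In the *Dicer* series, *Tuba1c* was at 65.6, 69.3 and 65.4 CPM in WT and at 180, 174 and 162 CPM in KO libraries. Every mutant library lay above every control library of its series. Its log2 fold change was 1.58 in *Ago2* ADH (standard error 0.0581, adjusted p = 3.40e-14), 1.60 in *Ago2* null (standard error 0.0777, adjusted p = 3.71e-11) and 1.36 in *Dicer* KO oocytes (standard error 0.0658, adjusted p = 3.81e-12). These p-values come from the quasi-likelihood test of edgeR, adjusted after Benjamini-Hochberg over all transcripts tested. Transcripts with an adjusted p below a false discovery rate (FDR) of 1% are called mis-regulated.

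*Tuba1b*, the isotype usually most abundant in cultured cells, rose to a similar degree. It was at 34.8, 32.8 and 33.9 CPM in *Ago2* fl/fl libraries, against 75.7, 88.4 and 76.3 CPM in *Ago2* ADH and 75.5 and 79.2 CPM in *Ago2* null libraries. In the *Dicer* series, *Tuba1b* was at 20.9, 23.7 and 18.1 CPM in WT and at 59.0, 50.7 and 50.5 CPM in KO libraries, again without overlap. The log2 fold changes were 1.29 (standard error 0.0678, adjusted p = 9.29e-12), 1.22 (standard error 0.0698, adjusted p = 3.53e-10) and 1.35 (standard error 0.103, adjusted p = 3.45e-09) in *Ago2* ADH, *Ago2* null and *Dicer* KO oocytes, by the same edgeR test.

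*Tuba1a*, the alpha isotype of developing neurons, was close to the limit of what these libraries count. Its raw counts were 28, 29 and 26 in *Ago2* fl/fl, 99, 119 and 48 in *Ago2* ADH and 84 and 111 in *Ago2* null libraries, and 19, 13 and 26 in *Dicer* WT against 87, 50 and 84 in *Dicer* KO libraries. All mutant libraries were above their controls, but the spread among them was wide. The log2 fold change of *Tuba1a* was 1.84 in *Ago2* ADH (95% interval 1.152 to 2.53, adjusted p = 1.18e-04), 1.91 in *Ago2* null (1.18 to 2.65, adjusted p = 2.30e-04) and 2.28 in *Dicer* KO oocytes (1.496 to 3.05, adjusted p = 5.67e-05), by the same edgeR test. Without *Ago2* null replicate 2 the change was 1.65 and was no longer called (adjusted p = 0.0104). *Tuba1a* and *Tuba1b* are near-identical in coding sequence, so the split of reads between them, and with it these low counts, is uncertain.

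**Figure D1:**
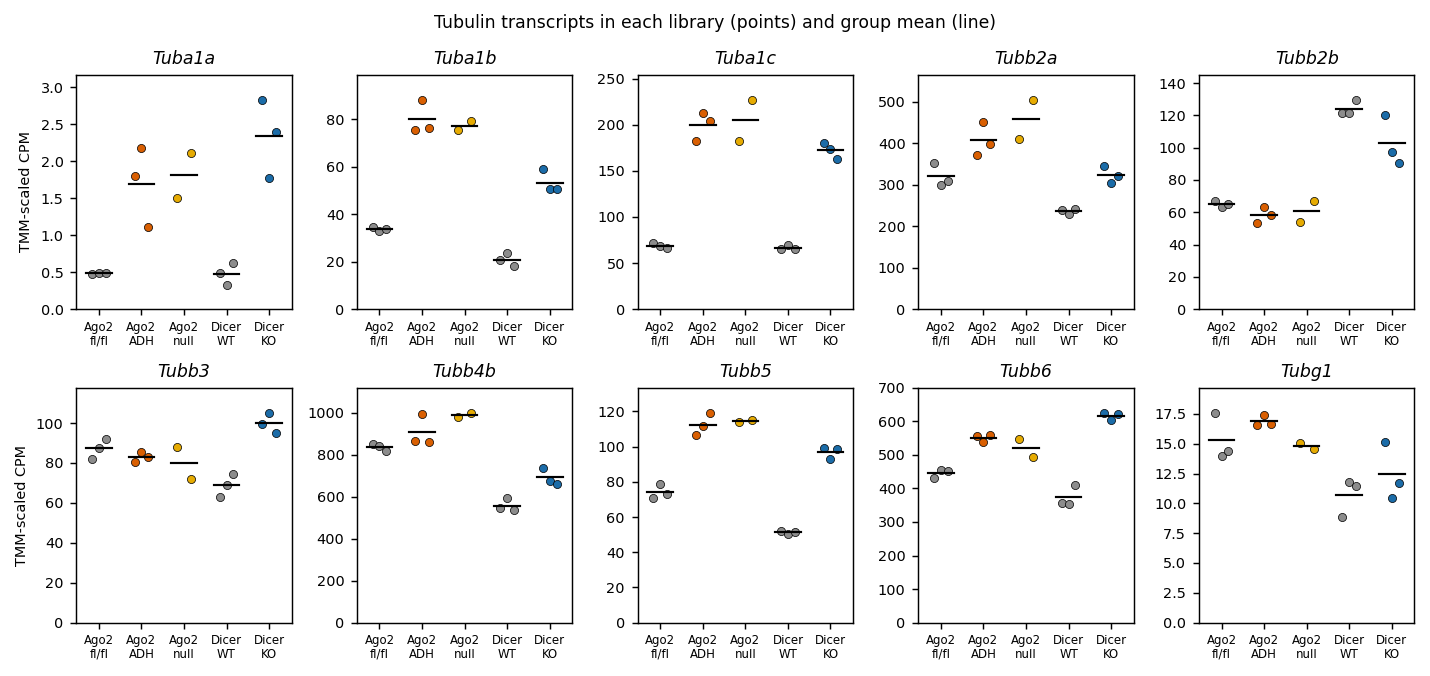
TMM-scaled CPM (vertical axis, from 0, a scale of its own in each panel) of the 10 tubulin transcripts in the 14 libraries (points) of 5 groups, with group means as lines. The mutant libraries lie above all control libraries of their series for *Tuba1a*, *Tuba1b*, *Tuba1c*, *Tubb2a*, *Tubb4b*, *Tubb5* and *Tubb6*, and *Tubb2b* is the only gene at a lower level in every *Dicer* KO library than in every *Dicer* WT library. The share of all transcripts whose groups separate in this way was not computed.

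Of the 10 tubulin genes, 6 were up-regulated in *Ago2* ADH oocytes and none was down-regulated, where 40.7% of the 18835 transcripts tested were called and 20.5% were called up. In *Ago2* null oocytes 7 were up-regulated and none was down-regulated, where 37.2% of transcripts were called and 18.1% were called up. In *Dicer* KO oocytes 8 were up-regulated and none was down-regulated, where 34.5% of transcripts were called and 16.7% were called up. The median log2 fold change over the 10 genes was 0.37, 0.41 and 0.63 in these comparisons, beside 0.0069, 0.0018 and -0.0044 over all transcripts tested. Because the 10 genes were chosen with earlier results of these data known, this comparison with all transcripts is a description. The counts are shares of each library, so a change in the amount of RNA per oocyte cannot be told apart from a change of these transcripts.

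**Figure D2:**
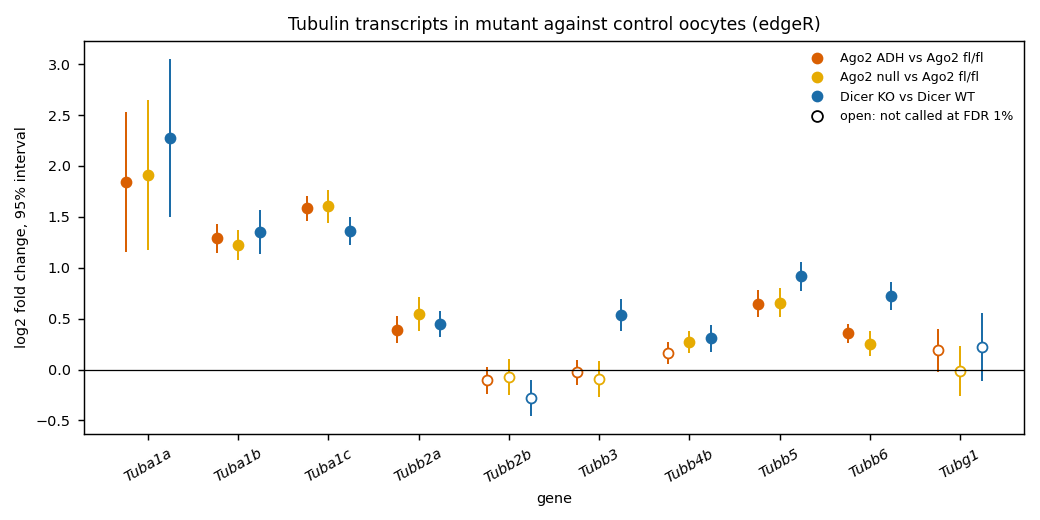
Log2 fold change (vertical axis) of each of the 10 tubulin transcripts in *Ago2* ADH, *Ago2* null and *Dicer* KO oocytes against their controls, with 95% intervals from edgeR; filled points are called at an FDR of 1%. The alpha genes sit between 1.22 and 2.28, *Tubb5* between 0.65 and 0.92, and the other beta genes and *Tubg1* at or below 0.72.

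Among beta-tubulin genes, *Tubb5*, a broadly expressed isotype, had the largest increase. It was at 70.6, 79.0 and 72.9 CPM in *Ago2* fl/fl, 107, 112 and 119 CPM in *Ago2* ADH and 114 and 115 CPM in *Ago2* null libraries. In the *Dicer* series it was at 52.0, 50.3 and 51.4 CPM in WT and at 99.3, 93.0 and 98.7 CPM in KO libraries. The 2 groups of each comparison did not overlap. The log2 fold change of *Tubb5* was 0.65 (standard error 0.0613, adjusted p = 5.24e-08), 0.66 (standard error 0.0671, adjusted p = 5.00e-07) and 0.92 (standard error 0.0682, adjusted p = 2.36e-09) in *Ago2* ADH, *Ago2* null and *Dicer* KO oocytes, by the same edgeR test.

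*Tubb6*, an isotype known from its induction in injured muscle and from destabilizing microtubules, was one of the most abundant tubulin transcripts. It was at 431, 454 and 452 CPM in *Ago2* fl/fl, 557, 539 and 560 CPM in *Ago2* ADH and 548 and 493 CPM in *Ago2* null libraries, and at 357, 353 and 412 CPM in *Dicer* WT against 625, 604 and 623 CPM in *Dicer* KO libraries. The mutant libraries lay above their controls in each comparison, and the distance was widest in the *Dicer* series. *Tubb6* had a log2 fold change of 0.36 in *Ago2* ADH (standard error 0.0460, adjusted p = 3.13e-06), 0.25 in *Ago2* null (standard error 0.0593, adjusted p = 0.00194) and 0.72 in *Dicer* KO oocytes (standard error 0.0649, adjusted p = 3.49e-08), by the same edgeR test. The call in *Ago2* null oocytes was lost without *Ago2* null replicate 1, when the change was 0.18 (adjusted p = 0.0282).

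*Tubb2a*, an isotype abundant in neurons, was at 351, 299 and 310 CPM in *Ago2* fl/fl, 371, 451 and 398 CPM in *Ago2* ADH and 409 and 505 CPM in *Ago2* null libraries, and at 238, 229 and 242 CPM in *Dicer* WT against 344, 304 and 321 CPM in *Dicer* KO libraries. In *Ago2* ADH, *Ago2* null and *Dicer* KO oocytes it rose by 0.39, 0.55 and 0.45 in log2 units (adjusted p = 4.48e-05, 2.53e-05 and 8.31e-06 by the same edgeR test). Its neighbour *Tubb2b*, also a neuronal isotype, was called in none of these comparisons. *Tubb2b* was at 67.1, 63.0 and 65.2 CPM in *Ago2* fl/fl, 53.6, 63.6 and 58.4 CPM in *Ago2* ADH and 54.0 and 67.2 CPM in *Ago2* null libraries, with log2 fold changes of -0.11 (adjusted p = 0.181) and -0.07 (adjusted p = 0.499) by the same edgeR test. In the *Dicer* series, *Tubb2b* was at 121, 122 and 130 CPM in WT and at 120, 97.5 and 90.6 CPM in KO libraries. Here the groups did not overlap, and the log2 fold change of -0.28 missed the threshold (95% interval -0.46 to -0.10, adjusted p = 0.0114 by the same edgeR test). It passed with DESeq2 (adjusted p = 0.00900) and without *Dicer* KO replicate 1, at -0.40 (adjusted p = 1.45e-04).

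*Tubb4b*, the isotype of cilia and of many dividing cells, was the most abundant tubulin transcript in every group. It was at 852, 843 and 815 CPM in *Ago2* fl/fl, 865, 993 and 861 CPM in *Ago2* ADH and 977 and 998 CPM in *Ago2* null libraries, and at 543, 591 and 537 CPM in *Dicer* WT against 736, 675 and 661 CPM in *Dicer* KO libraries. All mutant libraries were above their controls, by a small margin in *Ago2* ADH. Its log2 fold change was 0.16 in *Ago2* ADH (adjusted p = 0.0108), 0.27 in *Ago2* null (adjusted p = 2.89e-04) and 0.31 in *Dicer* KO oocytes (adjusted p = 5.23e-04), by the same edgeR test. The *Ago2* ADH value passed with DESeq2 (adjusted p = 0.00757) and without *Ago2* ADH replicate 3 (adjusted p = 0.00570).

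*Tubb3*, the beta isotype used as a marker of neurons, differed between the series. It was at 82.1, 87.7 and 92.1 CPM in *Ago2* fl/fl, 80.7, 85.4 and 83.2 CPM in *Ago2* ADH and 87.8 and 72.2 CPM in *Ago2* null libraries, so the groups overlapped. In the *Dicer* series it was at 62.9, 68.9 and 74.6 CPM in WT and at 99.4, 105 and 95.1 CPM in KO libraries, without overlap. The log2 fold change of *Tubb3* was -0.02 in *Ago2* ADH (95% interval -0.15 to 0.10, adjusted p = 0.749), -0.09 in *Ago2* null (-0.27 to 0.08, adjusted p = 0.366) and 0.53 in *Dicer* KO oocytes (0.38 to 0.69, adjusted p = 1.05e-05), by the same edgeR test.

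*Tubg1*, the main gamma-tubulin of most tissues, was at 17.6, 13.9 and 14.4 CPM in *Ago2* fl/fl, 16.6, 17.4 and 16.6 CPM in *Ago2* ADH and 15.03 and 14.6 CPM in *Ago2* null libraries, and at 8.82, 11.8 and 11.4 CPM in *Dicer* WT against 15.2, 10.5 and 11.7 CPM in *Dicer* KO libraries. The groups overlapped in each comparison with a control, and no change was called. The 95% intervals of its log2 fold change were -0.02 to 0.40 in *Ago2* ADH, -0.26 to 0.23 in *Ago2* null and -0.11 to 0.55 in *Dicer* KO oocytes, so a rise of up to 0.40 or 0.55 was not excluded at this depth. In these oocytes *Tubg2*, a gamma-tubulin gene outside the 10, was above *Tubg1*. It was at 98.3, 97.0 and 90.5 CPM in *Ago2* fl/fl and at 74.0, 81.0 and 78.2 CPM in *Dicer* WT libraries.

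No tubulin gene was called between *Ago2* ADH and *Ago2* null oocytes by edgeR or by DESeq2, and none had an unadjusted p below 0.05 in the edgeR fit, where 0.119% of 19306 transcripts were called (0.0673% up and 0.0518% down) and 1931 had an unadjusted p below 0.05. For the 3 alpha genes the difference of *Ago2* ADH from *Ago2* null was -0.09 for *Tuba1a* (95% interval -0.72 to 0.55), 0.05 for *Tuba1b* (-0.12 to 0.21) and -0.04 for *Tuba1c* (-0.21 to 0.13) on the log2 scale. Libraries of the 2 groups overlapped for 9 genes, and *Tubg1* was higher in every *Ago2* ADH library, by 0.19 (adjusted p = 0.599 by the same edgeR test). The share of all transcripts without overlap was not computed, so this separation is not read as a difference.

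The change in *Ago2* ADH oocytes and the change in *Dicer* KO oocytes, which share no library, were compared directly by an interaction term. It was called for 2 of the 10 tubulin genes, where 3.55% of 19500 transcripts were called (1.2% up and 2.35% down). *Tubb3* changed less in *Ago2* ADH than in *Dicer* KO oocytes, by -0.61 on the log2 scale (standard error 0.0952, adjusted p = 2.08e-04 by the edgeR test). *Tubb6* changed less by -0.42 (standard error 0.0786, adjusted p = 0.00145 from the same edgeR test). *Tubb5* had a difference of -0.32 that missed the threshold (adjusted p = 0.0251 from the same edgeR test), and for the alpha genes the differences were -0.49, -0.11 and 0.17 for *Tuba1a*, *Tuba1b* and *Tuba1c*, none of them called. The *Dicer* and *Ago2* libraries were sequenced on different lanes, and series and mutant cannot be told apart in this comparison.

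To compare genes with each other, the level was taken as CPM per kilobase of transcript. In *Ago2* fl/fl oocytes *Tubb4b* was highest, at 523 ± 12.04 CPM per kilobase (SD, n = 3), followed by *Tubb6* (254 ± 7.33) and *Tubb2a* (199 ± 17.2). The other genes followed at a distance, with *Tubb3* at 46.7 ± 2.68, *Tuba1c* at 34.7 ± 1.36, *Tubb2b* at 29.8 ± 0.927, *Tubb5* at 28.0 ± 1.64 and *Tuba1b* at 19.4 ± 0.574 CPM per kilobase. *Tubg1* was at 8.49 ± 1.103 and *Tuba1a* last at 0.271 ± 0.00365 CPM per kilobase. Of the neighbours in this order, only *Tubb2b* and *Tubb5* overlapped between libraries. In *Ago2* ADH oocytes *Tuba1c*, at 101 ± 7.60 CPM per kilobase, stood next after these 3, above *Tubb3* at 44.5 ± 1.27. In *Dicer* WT oocytes *Tubb2b* held that place, at 56.9 ± 2.18 CPM per kilobase. The order changed with the length used. Per kilobase of 50-base windows found in no other gene, *Tubb2a* (406 CPM) was above *Tubb6* (261 CPM) in *Ago2* fl/fl oocytes. There *Tuba1b* (112 CPM) and *Tuba1c* (91.1 CPM) were also above *Tubb2b* (50.3 CPM) and *Tubb3* (48.0 CPM). By that length *Tuba1c* thus already stood above *Tubb3* in this control.

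The summed level of *Tuba1a*, *Tuba1b* and *Tuba1c* was 54.4 ± 1.72 CPM per kilobase in *Ago2* fl/fl (n = 3), 148 ± 11.1 in *Ago2* ADH (n = 3), 149 ± 17.8 in *Ago2* null (n = 2), 46.0 ± 2.56 in *Dicer* WT (n = 3) and 119 ± 7.12 in *Dicer* KO oocytes (n = 3). The summed level of the 6 beta genes went from 1080 ± 16.1 to 1247 ± 68.8 and 1312 ± 27.2 in the *Ago2* series and from 821 ± 19.8 to 1121 ± 47.1 CPM per kilobase in the *Dicer* series. The ratio of these 6 beta to these 3 alpha genes was 19.9 ± 0.336 in *Ago2* fl/fl, 8.46 ± 0.252 in *Ago2* ADH, 8.88 ± 0.882 in *Ago2* null, 17.9 ± 1.151 in *Dicer* WT and 9.45 ± 0.280 in *Dicer* KO oocytes. The ratio in any 1 library depends on which positions can be counted. Per kilobase of 50-base windows found in no other gene, it was 9.26 ± 0.0925, 4.06 ± 0.0769, 4.38 ± 0.270, 8.87 ± 0.625 and 4.52 ± 0.112 in the same order. The size of the ratio was not fixed by these data. It also depends on which genes are summed. Per kilobase of transcript, *Tuba4a*, an alpha gene outside the 10, had the highest level of all alpha genes in *Ago2* fl/fl oocytes, at 79.4 ± 4.66 CPM. Unique windows were not sought for *Tuba4a*, so its rank by that length is not known. Per kilobase of unique 50-base windows, *Tuba1b* was at 112 and *Tuba1c* at 91.1 CPM in *Ago2* fl/fl oocytes. Over all 8 alpha and 8 beta genes listed, a sum added after the data were seen, the ratio was 5.87 ± 0.269 in *Ago2* fl/fl, 4.52 ± 0.0647 in *Ago2* ADH, 4.92 ± 0.0551 in *Ago2* null, 4.71 ± 0.0801 in *Dicer* WT and 4.21 ± 0.186 in *Dicer* KO oocytes. Per kilobase of transcript, the mutant ratios were thus lower with either sum, by less when all listed genes were counted.

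**Figure D3:**
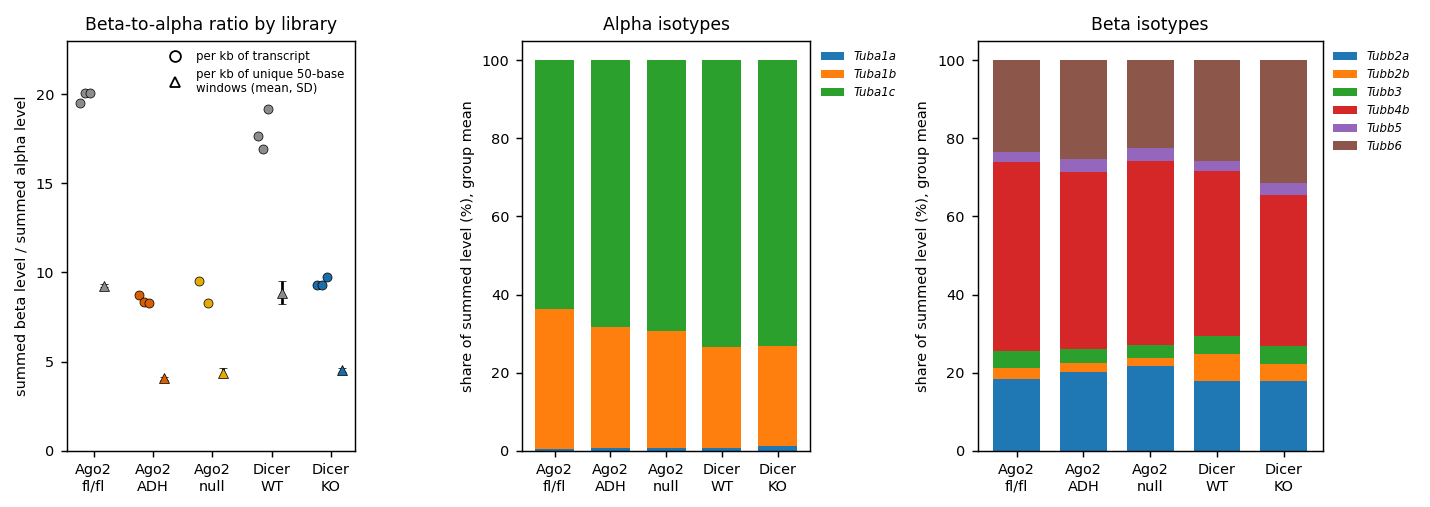
Left, the ratio of the summed level of the 6 beta genes to that of *Tuba1a*, *Tuba1b* and *Tuba1c* per library (circles, per kilobase of transcript) and as group mean with SD (triangles, per kilobase of unique 50-base windows). Middle and right, group mean shares (%) of each isotype among these 3 alpha and these 6 beta genes, per kilobase of transcript; control ratios of 19.9 and 17.9 stand above mutant ratios of 8.46 to 9.45, and other alpha genes such as *Tuba4a* are not included.

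*Tuba1c* held 63.8 ± 0.826% of the summed level of the 3 alpha genes in *Ago2* fl/fl, 68.2 ± 1.39% in *Ago2* ADH, 69.3 ± 2.50% in *Ago2* null, 73.4 ± 1.90% in *Dicer* WT and 73.1 ± 1.22% in *Dicer* KO oocytes. *Tuba1b* held most of the rest, and *Tuba1a* held at most 1.09% on average. With unique 50-base windows as length, *Tuba1b* (55.0%) was above *Tuba1c* (44.6%) in *Ago2* fl/fl oocytes, so their order was not settled. Among all 8 alpha genes listed, *Tuba1c* held 18.9 ± 1.32% in *Ago2* fl/fl, 36.4 ± 1.31% in *Ago2* ADH, 38.7 ± 5.65% in *Ago2* null, 19.3 ± 0.968% in *Dicer* WT and 32.6 ± 0.386% in *Dicer* KO oocytes. *Tuba4a* held 43.1 ± 1.26%, 26.9 ± 0.866%, 26.0 ± 3.57%, 46.7 ± 1.56% and 32.7 ± 0.875% in the same order. Within the beta family *Tubb4b* held 48.5 ± 0.577% in *Ago2* fl/fl oocytes, against 45.4 ± 1.38% and 47.1 ± 0.290% in the ADH and null mutants. *Tubb4b* went, within the *Dicer* series, from 42.5 ± 2.40% in WT to 38.5 ± 0.750% in KO, *Tubb6* from 25.9 ± 1.83% to 31.3 ± 1.02% and *Tubb2b* from 6.93 ± 0.164% to 4.19 ± 0.452%. *Tubb2b* made up 2.76 ± 0.0685% of the beta level in the other control group, *Ago2* fl/fl. With unique 50-base windows as length, *Tubb4b* held 58.1% in *Ago2* fl/fl oocytes, and *Tubb2a* (21.4%) was above *Tubb6* (13.8%). From *Dicer* WT to KO, *Tubb4b* then went from 52.1% to 49.0%, *Tubb6* from 15.6% to 19.5% and *Tubb2b* from 6.83% to 4.27%. These shares are descriptions, and no test was run on them. Those among all 8 alpha genes were taken per kilobase of transcript only.

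The count tables leave out reads that aligned more than once, and the tubulin genes differ in how much of their sequence is found elsewhere. Of all 50-base windows of the transcript, the share found in no other GENCODE gene on either strand was 35.7% for *Tuba1a*, 17.8% for *Tuba1b* and 39.0% for *Tuba1c*. It was 50.4% for *Tubb2a*, 60.7% for *Tubb2b*, 49.1% for *Tubb4b* and 85.9% for *Tubg1*, and at least 99.9% for *Tubb3*, *Tubb5* and *Tubb6*. Annotations that overlap the gene's own locus were left out of this search. Of these last 3 genes, *Tubb5* and *Tubb6* rose in all 3 mutants and *Tubb3* was called in *Dicer* KO oocytes and in neither *Ago2* mutant. Alignments counted as not unique were taken as a share of these and the assigned counts together. A read with several alignments can enter this tally more than once, so the share is not one of reads. It was between 35.8% and 37.4% in *Ago2* fl/fl, 61.2% and 62.4% in *Ago2* ADH and 61.0% and 62.3% in *Ago2* null libraries. In the *Dicer* series it was between 27.9% and 34.9% in WT and between 48.4% and 54.4% in KO libraries. This share thus moved with the alpha genes, and its part in their values was not tested.

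**Figure D4:**
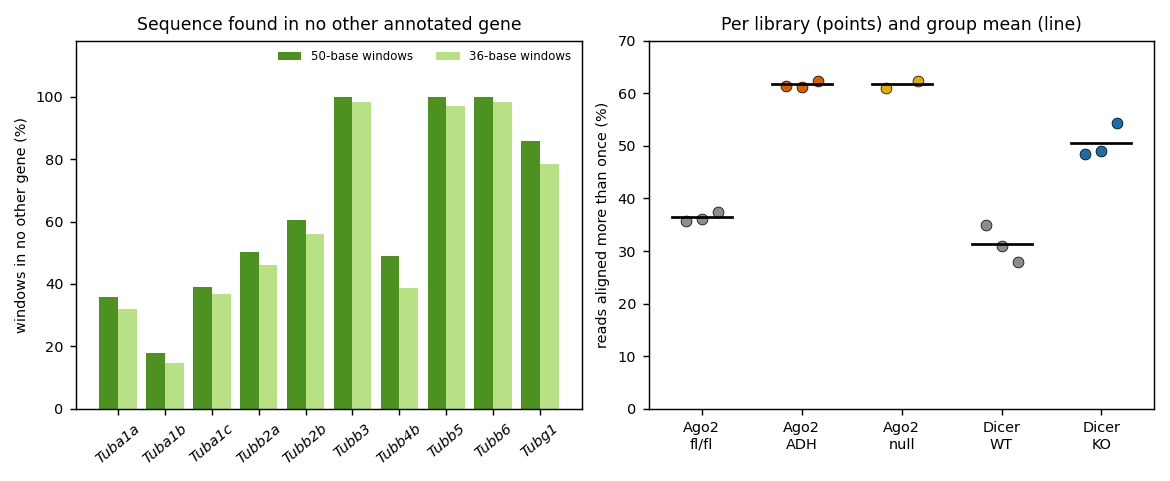
Left, share (%) of 50-base and 36-base windows of each tubulin transcript that were found in no other annotated gene; the 3 alpha genes have the lowest shares, 17.8% to 39.0% with 50 bases. Right, alignments counted as not unique in each library (points, % of these and assigned counts together, named reads on the axis). Group means are lines, at 61.7% in both *Ago2* mutants against 36.4% in *Ago2* fl/fl.

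*Tuba1a*, *Tuba1b* and *Tuba1c* shared 50-base windows with 17, 18 and 18 other genes, of which 12, 13 and 12 were processed pseudogenes. Of these genes, 15, 16 and 16 matched in sense, and 2 loci, picked out after the values were seen, matched all 3 alpha genes in antisense. The long non-coding RNA gene *AC157548.1* (chromosome 18, 82336250 to 82361600) held the antisense of 817 of 1754 windows of *Tuba1a*, 965 of 1694 of *Tuba1b* and 728 of 1933 of *Tuba1c*. The processed alpha-tubulin pseudogene *Gm17383* lies within its span on the opposite strand. The longest uninterrupted antisense run was 320, 281 and 266 bases for *Tuba1a*, *Tuba1b* and *Tuba1c*, all within the coding sequence. *AC157548.1* was not analysed here beyond its sequence, as the count tables hold no row under this name.

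The other locus was *Slc7a11* (chromosome 3, 49892526 to 50443614), which encodes a cystine transporter and whose annotated messenger contained the antisense of 102, 91 and 45 windows of *Tuba1a*, *Tuba1b* and *Tuba1c*. The run in *Tuba1b* was 121 bases long, at coding positions 793 to 913 counted from the start codon, and that in *Tuba1c* 66 bases, at positions 793 to 858.

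The counts of *Slc7a11* were 22142, 21749 and 18147 in *Ago2* fl/fl, 16660, 18414 and 12876 in *Ago2* ADH and 16827 and 16079 in *Ago2* null libraries. It fell, with log2 fold changes of -0.17 (adjusted p = 0.00782) and -0.23 (adjusted p = 0.00275), in the *Ago2* mutants, by the same edgeR test. In *Dicer* KO oocytes its log2 fold change was -0.02 (adjusted p = 0.781). None of the 7 beta and gamma genes had an antisense match of 50 bases outside its own locus. *Tubb4b* overlaps the gene *Fam166a* on the opposite strand by 121 bases at its own locus, and since the counting ignored strand, reads in this stretch cannot be told apart. Small RNAs were not measured in these libraries, and the part of antisense matches in the values was not tested.

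Within 100 kilobases of the 3 alpha genes, 8 other genes were tested in *Ago2* ADH oocytes, of which 1 was up-regulated and 1 down-regulated, beside 20.5% and 20.1% of all transcripts. The gene that rose was *Rhebl1*, which encodes a small GTPase, by 1.26 (adjusted p = 2.83e-06 by the same edgeR test). In *Ago2* null oocytes it rose by 1.46 (adjusted p = 3.85e-06 by the same edgeR test) and was the only 1 of the 8 called, and in *Dicer* KO oocytes 1 of 6 rose, *Kmt2d* (0.25), and 1 fell, *Prkag1* (-0.45), with *Rhebl1* at 0.46 (adjusted p = 0.191). Over all transcripts 18.1% were called up and 19.1% down in *Ago2* null, and 16.7% up and 17.8% down in *Dicer* KO oocytes, so these counts were not above the background.

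Of the other 10 tubulin genes listed, 8 had enough counts to be tested against controls, and *Tubb1*, the isotype of platelets, had a count of 0 in every library. *Tuba4a*, an alpha isotype of many differentiated tissues, was at 211, 228 and 237 CPM in *Ago2* fl/fl, 207, 213 and 211 CPM in *Ago2* ADH and 215 and 179 CPM in *Ago2* null libraries, and at 230, 219 and 244 CPM in *Dicer* WT against 256, 248 and 237 CPM in *Dicer* KO libraries. It was not called in any comparison, with log2 fold changes of -0.05, -0.16 and 0.09 (adjusted p = 0.417, 0.0884 and 0.231 by the same edgeR test), and neither was *Tuba3a*. *Tuba3b*, an alpha isotype of testis, was lower in all 3 mutants. It was at 5.01, 7.54 and 6.23 CPM in *Ago2* fl/fl, 2.39, 1.77 and 1.78 CPM in *Ago2* ADH and 2.65 and 1.96 CPM in *Ago2* null libraries, and at 4.45, 4.26 and 3.98 CPM in *Dicer* WT against 0.715, 1.14 and 0.971 CPM in *Dicer* KO libraries. It fell, with log2 fold changes of -1.61, -1.41 and -2.17 (adjusted p = 1.09e-06, 4.05e-05 and 2.04e-06 by the same edgeR test). *Tubd1*, which encodes delta-tubulin of centrioles, fell, with log2 fold changes of -0.74, -0.76 and -0.89 (adjusted p = 9.09e-07, 1.22e-05 and 7.31e-06 by the same edgeR test). *Tubal3* rose in *Ago2* ADH (0.43) and *Dicer* KO oocytes (0.64), and *Tubg2*, the second gamma-tubulin gene, rose in *Ago2* ADH oocytes (0.34). In each comparison 2 of these 8 genes fell, and 2, none and 1 rose in *Ago2* ADH, *Ago2* null and *Dicer* KO oocytes, where 20.1%, 19.1% and 17.8% of all transcripts were called down and 20.5%, 18.1% and 16.7% up. The median log2 fold change over the 8 genes was -0.03, -0.09 and -0.02.

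Genes that handle tubulin were counted in the same way, against shares over all transcripts of 20.5%, 18.1% and 16.7% called up and 20.1%, 19.1% and 17.8% called down in *Ago2* ADH, *Ago2* null and *Dicer* KO oocytes. In the gamma-tubulin ring complex and its tethers, 2 of 10 rose and 2 fell in both *Ago2* mutants, and 1 rose and 1 fell in *Dicer* KO oocytes, which is near or below those shares. *Cdk5rap2*, which tethers and activates the ring complex, rose by 1.14, 1.11 and 0.99 in *Ago2* ADH, *Ago2* null and *Dicer* KO oocytes. *Tubgcp4*, a ring complex subunit, rose in the *Ago2* mutants by 0.66 and 0.83 and had a value of 0.56 in *Dicer* KO oocytes that was not called (adjusted p = 0.0421 by the same edgeR test). Of 7 genes of the CCT chaperonin, which folds newly made tubulin, 1, 2 and none rose and none, none and 2 fell. *Cct7* rose by 0.29 in *Ago2* ADH oocytes. Of the 6 genes of prefoldin, which hands nascent tubulin to the chaperonin, 2, 2 and 1 rose and 1, 1 and none fell. *Vbp1* rose by 1.32, 1.40 and 1.66, and *Pfdn5* rose in both *Ago2* mutants by 0.24 and 0.30, whereas *Pfdn4* fell in both, with log2 fold changes of -0.18 and -0.23.

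The 7 genes of tubulin folding cofactors, which join alpha and beta subunits into the heterodimer, held *Tbcd*, with the largest change among called list genes that averaged 100 or more normalized counts. *Tbcd*, which binds beta-tubulin in this step, rose by 2.83, 2.88 and 2.89 on the log2 scale (adjusted p = 1.84e-17, 3.95e-15 and 1.00e-15 by the same edgeR test), and none of the other 6 was called in any of these comparisons. Of 10 genes of tubulin messenger autoregulation, 7, 5 and 4 fell and 1, 1 and 2 rose, with medians of -0.25, -0.27 and -0.19, where 20.1%, 19.1% and 17.8% of all transcripts were called down. In each comparison the genes that fell were all subunits of the CCR4-NOT deadenylase. *Scaper*, the adaptor between the nascent-chain sensor and the CCR4-NOT deadenylase, rose by 2.05, 2.04 and 1.93, and *Cnot6*, a deadenylase subunit, fell, with log2 fold changes of -0.50, -0.58 and -0.44. *Ttc5*, the sensor itself, was not called in any comparison.

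Of the enzymes that modify tubulin tails or the lumen of microtubules, 3 of 15, 3 of 14 and 3 of 13 tested genes rose and 4, 2 and 2 fell, near the shares over all transcripts. *Ttll1*, a subunit of a glutamylase, rose by 1.05, 1.04 and 1.60, and the interaction term gave a smaller change in *Ago2* ADH than in *Dicer* KO oocytes (-0.60, adjusted p = 0.00285 by the same edgeR test). *Ttll11*, another glutamylase, rose by 0.85, 0.82 and 0.78. Of 6, 7 and 7 tested genes that sequester tubulin or sever microtubules, 2 fell in each comparison, and 1, *Katna1*, rose in *Ago2* null oocytes. *Fignl1* fell, with log2 fold changes of -1.23, -1.34 and -1.36, and so did *Spast*, a severing enzyme, with -0.40, -0.34 and -0.47.

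**Figure D5:**
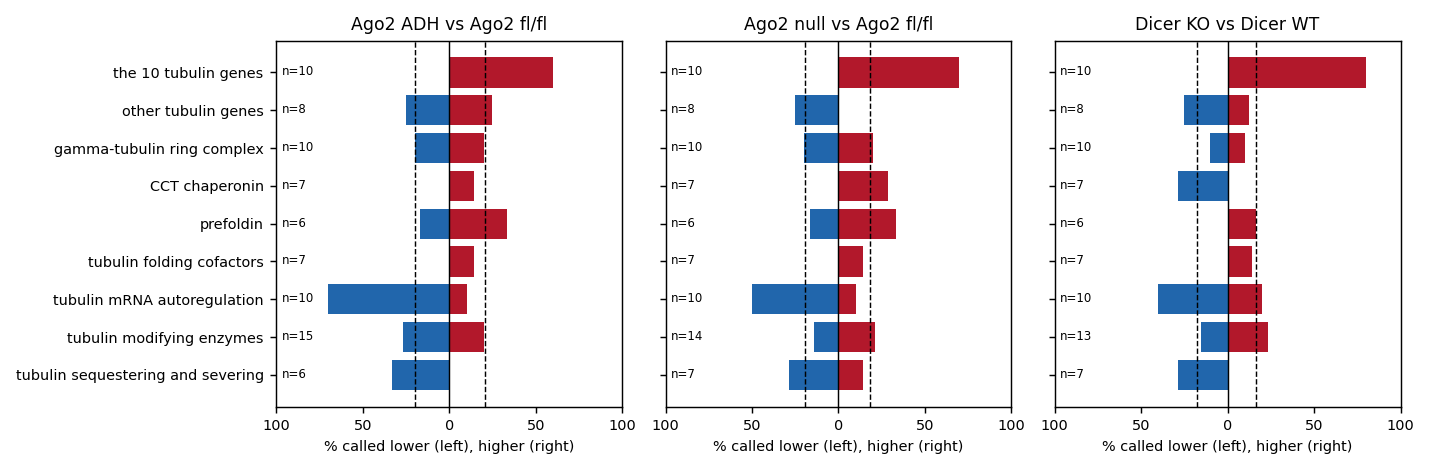
Share (%) of tested genes called higher (right) or lower (left) at an FDR of 1% in each list, for the 3 mutants; n is the number tested and dashed lines are the shares over all transcripts, such as 20.5% up and 20.1% down in *Ago2* ADH. The 10 tubulin genes have no bar to the left, and the autoregulation list has its longer bar to the left in all 3 comparisons. The genes in that left bar are all subunits of the CCR4-NOT deadenylase.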

How the data were processed

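The deposited values are raw counts per RefSeq transcript, which the authors made by mapping 36-base or 50-base reads to mm10 with TopHat2 (2.0.7 per the labels), allowing multiple hits, and counting with HTSeq 0.6.1 without strand; which libraries had which read length is not given in the sources used here. Of 26495 identifiers, 26081 got a symbol from the RefSeq table and 113 from GENCODE M21. The members and gene lists were chosen with earlier results of these data known. For the tubulin genes every member is named, and of each other list at most 2 genes, those with the largest absolute log2 fold change among genes called in *Ago2* ADH oocytes whose normalized counts averaged 100 or more. Other genes named beyond this rule (neighbouring and antisense loci, *Tuba4a*, *Tuba3a*, *Tubal3*, *Tubg2*, *Tubb1*, *Pfdn4*, *Katna1*, *Ttc5* and single markers) were chosen after their values were seen.

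Counts of all transcripts were tested per comparison with edgeR 4.0.16 (quasi-likelihood test, TMM, filterByExpr with a minimum count of 10, Benjamini-Hochberg, FDR of 1%), with DESeq2 1.42.0 and other settings as alternatives. The test was tried on simulated counts in which 200 of 18835 transcripts were changed 2-fold. It recovered 200 of them, with 3 false calls. Smaller changes, or as many changed transcripts as were called in these data, were not simulated. The total count per library, 29380403 to 58285057, sets the precision; 3 counts correspond to 0.0515 to 0.102 CPM, and intervals cover the spread between these libraries. With 3 against 3 libraries an exact permutation test cannot go below p = 0.1, so single genes were tested only in the fit across all transcripts. Level per kilobase used GENCODE M21 transcript lengths, and unique windows were sought among GENCODE transcripts only, not in the genome. Paired reads, which span more than 1 window, can be placed where a single window cannot. No 2 libraries of a group agreed within sampling noise. Replicate numbers did not pair the samples (closing section). The coding end of 1 alpha gene is not reported here.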

Additional observations from a re-analysis of the deposited data

Results flagged for a closer look

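*Tubb3* was singled out because its change differed between mutants: -0.61 on the log2 scale for the *Ago2* ADH effect minus the *Dicer* KO effect, by an interaction term (adjusted p = 2.08e-04 by the quasi-likelihood test of edgeR), in 3 against 3 libraries on each side. *Tubb6* met the same criterion with -0.42 (adjusted p = 0.00145 from the same edgeR test). In 20 alternatives these differences lay between -0.67 and -0.54 for *Tubb3* and between -0.49 and -0.35 for *Tubb6* and stayed called.

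Alignments counted as not unique lie outside the transcript counts, and their share was above that of the controls in all 3 mutants. This share averaged 61.7 ± 0.639% in *Ago2* ADH and 61.7 ± 0.928% in *Ago2* null libraries, against 36.4 ± 0.857% in *Ago2* fl/fl. It was 50.6 ± 3.26% in *Dicer* KO against 31.3 ± 3.50% in *Dicer* WT libraries. No group had the 4 libraries needed to look for single outlying values.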

How the results depend on the processing

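The number of tubulin genes called ranged from 6 to 7 in *Ago2* ADH, 5 to 7 in *Ago2* null and 8 to 9 in *Dicer* KO oocytes, was 0 between *Ago2* ADH and *Ago2* null and 2 to 3 for the interaction, over all alternatives; with single libraries left out it was 6 to 7, 6 to 7, 8 to 9, 0 to 0 and 2 to 2. Calls over all transcripts moved as well. In *Ago2* null oocytes they were 7157 of 19236 in the main fit. They were 9473 at an FDR of 5% and 6041 with the replicate number as a block. Of the single-gene values under alternatives, 708 kept direction and call, 10 gained and 4 lost the call, and 18 uncalled values changed sign. The beta-to-alpha ratio in *Ago2* fl/fl oocytes (19.9) was 9.26 and 9.57 with unique 50-base and 36-base windows, and the *Tuba1c* share (63.8%) was 44.6% and 41.3%. Over all 8 alpha and 8 beta genes listed, chosen after seeing the data, they were 5.87 and 18.9% per kilobase of transcript. With single libraries left out the ratio was 19.8 to 20.1 and the share 63.4% to 64.2%.

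Replicate numbers did not pair the samples: correlations of same-numbered libraries lay between -0.0852 and 0.0426. With the replicate number as a block, 6, 5, 8, 0 and 2 tubulin genes were called in the comparisons as listed above, *Tubb4b* (0.25, adjusted p = 0.0144) and *Tubb6* (0.27, adjusted p = 0.0130, edgeR) dropping out in *Ago2* null oocytes, and *Tuba1a* turned to 0.14 between *Ago2* ADH and *Ago2* null oocytes.

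Sign changes on leaving out single libraries concerned uncalled values near 0. In *Ago2* ADH, *Tubb3* spanned -0.076 to 0.015. In *Ago2* null, *Tubb2b* spanned -0.24 to 0.080, *Tubb3* -0.24 to 0.039 and *Tubg1* -0.070 to 0.10. Between *Ago2* ADH and *Ago2* null, *Tuba1a* spanned -0.31 to 0.18, *Tuba1b* -0.020 to 0.086, *Tuba1c* -0.18 to 0.13, *Tubb2b* -0.20 to 0.11, *Tubb3* -0.085 to 0.21 and *Tubb5* -0.076 to 0.0068. In the interaction, *Tubg1* spanned -0.19 to 0.080.

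Over all transcripts, 23 were called between *Ago2* ADH and *Ago2* null, against 56 at an FDR of 5%, 81 with DESeq2, 94 without a filter, 142 with the block and 6 to 21 with single libraries left out. For the interaction, 692 were called (234 up, 458 down), against 1638 at an FDR of 5%, 1104 with DESeq2 (513 up, 591 down), 697 with library totals only (346 up, 351 down) and 439 to 913 with single libraries left out. The causes were not tested. Reads placed more than once, the small groups and the lane shared by each *Ago2* genotype limit these values.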

Other observations

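As a description over 14 libraries, each centred on its control mean, the transcripts whose pattern was most like that of *Tuba1c* among 8671 genes at 5 CPM or more were *Vav3* (Pearson r = 0.996), *Fam107b* (0.996) and *Ubxn2b* (0.995), and those most like *Tuba1a* were *Timmdc1* (0.979), *P4ha1* (0.976) and *Nol3* (0.975). The libraries share controls and depth, so no p is given. *Tuba1b* was at r = 0.978 with *Tuba1c* (rank 206 of the 8671 genes), *Tubb5* at 0.913 (rank 746) and *Tubb2b* at -0.50 (rank 5146). Other members were at 0.909 (*Tubb2a*), 0.757 (*Tubb4b*), 0.701 (*Tubb6*), 0.342 (*Tubg1*) and 0.175 (*Tubb3*). Many genes outside the tubulins were thus closer to *Tuba1c* than these members.

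Of 10 oocyte markers, 4, 4 and 1 rose and 3, 2 and 2 fell in *Ago2* ADH, *Ago2* null and *Dicer* KO oocytes, with *Zp2*, *Zp3*, *Figla* and *Nlrp5* up in both *Ago2* mutants. Over all transcripts, 20.5%, 18.1% and 16.7% were called up and 20.1%, 19.1% and 17.8% down in the same order. These shares stand beside all marker counts in this paragraph. *Ooep*, of the subcortical maternal complex, had log2 fold changes of -0.35, -0.23 and 0.21, all called. *Mos*, whose kinase holds the metaphase II arrest, changed by -0.78, -0.98 and -0.69 in log2 units (adjusted p = 3.90e-10, 4.14e-09 and 3.25e-08, edgeR). Markers of granulosa and cumulus cells summed to between 76.3 and 83.1 CPM in *Ago2* fl/fl, 61.9 and 69.2 CPM in *Ago2* ADH, 57.0 and 59.6 CPM in *Ago2* null, 94.8 and 102 CPM in *Dicer* WT and 80.7 and 83.6 CPM in *Dicer* KO libraries, and of the 7, 8 and 5 of these markers with enough counts to be tested in *Ago2* ADH, *Ago2* null and *Dicer* KO oocytes, none rose and 2, 1 and 1 fell (*Fshr* and *Cyp19a1*, *Cyp19a1*, and *Nr5a2*). Markers of theca, blood and stroma summed to between 33.8 and 45.0 CPM.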
